A study of Homo sapiens with 4 samples.

Results

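Neurotransmitter receptor genes were taken from the expression table of FaDu cells by their symbols: subunits of the GABA-A (GABR), glycine (GLR), nicotinic (CHRN), 5-HT3 (HTR3) and ionotropic glutamate (GRIA, GRIK, GRID, GRIN) receptor channels, and the metabotropic glutamate (GRM), muscarinic (CHRM), serotonin (HTR), dopamine (DRD) and adrenergic (ADRA, ADRB) receptors. The symbol pattern, which used no measured value, gave 104 of 25548 gene symbols in 14 families, each on a single row. Of these, 3 are not receptor subunits: GRID2IP, which encodes a protein that binds a delta receptor, and HTR7P1 and GLRA4, which RefSeq lists as transcribed pseudogenes. FaDu is an established squamous carcinoma line of the hypopharynx, grown here as a plain culture. The control culture was given vehicle (the label names DMSO, and the protocol ethanol as the vehicle of TSA) and is called DMSO here. The treated culture was given 5 µM Aza (5-aza-2'-deoxycytidine), an inhibitor of DNA methyltransferases, on days 1 to 3 and 100 nM TSA (trichostatin A), an inhibitor of histone deacetylases, on day 3. The agents were given together, so their separate effects cannot be told apart. Polyadenylated RNA was sequenced from 1 library per group, so each value below compares 2 libraries, has no replicate error and carries no test. The series also holds UMSCC47 libraries, which were not used here: GAPDH, a gene that every cell uses, was listed at 0.290 and 0.177 FPKM in those columns against 2590 and 2971 FPKM in the FaDu columns.

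Neurotransmitter receptors are channels or G-protein-coupled receptors. Ligand-gated channels are assembled from several subunits around a pore and open within milliseconds of binding their transmitter, while G-protein-coupled receptors are single chains that act through second messengers. Most of these genes are known for their use in neurons, glia or muscle, and many carry CpG-rich promoters. A few have known roles in surface epithelium, among them nicotinic receptors that bind acetylcholine made by keratinocytes.

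Levels are in FPKM, fragments per kilobase of transcript scaled to the mapped fragments of the library. Genes that reached 1 FPKM in the DMSO or the treated library are called measured. A measured gene is called higher or lower where FPKM + 1 differed 2-fold, and the added 1 makes changes between low values look smaller than they are. The receptor genes were nearly silent in FaDu with and without treatment. Only 8 of 104 were measured, or 7.69%, against 53.1% of all genes in the table. Of those 8, CHRNB1 was at least 2-fold higher (16.1% of all measured genes were) and GLRB at least 2-fold lower (5.21% of all measured genes were). Their median log2 change was -0.05, against 0.13 over all 13558 measured genes, and the median over all 104 receptor genes was 0, as it was over all genes. No receptor gene went from under 0.1 FPKM in the DMSO library to 1 FPKM or more in the treated library, whereas 5.25% of all genes under 0.1 FPKM with DMSO did so.

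Below that level the treated library held more of them. Of the 58 receptor genes listed at 0 in the DMSO library, 23 (39.7%) were above 0 in the treated library, against 29.9% of all genes listed at 0 with DMSO. In the other direction, 6 of the 46 receptor genes above 0 with DMSO were listed at 0 after treatment, where 3.45% of all genes were. Another 40 were above 0 in both libraries and 35 were listed at 0 in both. Among the 69 receptor genes above 0 in either library, the treated value was the higher of the pair in 44 (63.8%), close to the 59.4% of all genes. In bulk RNA, more cells with a gene on and more RNA per cell cannot be told apart. The longest coding transcript had a median of 3407 bases for the receptor genes and 2681 for all genes with a matched transcript.

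**Figure D1:**
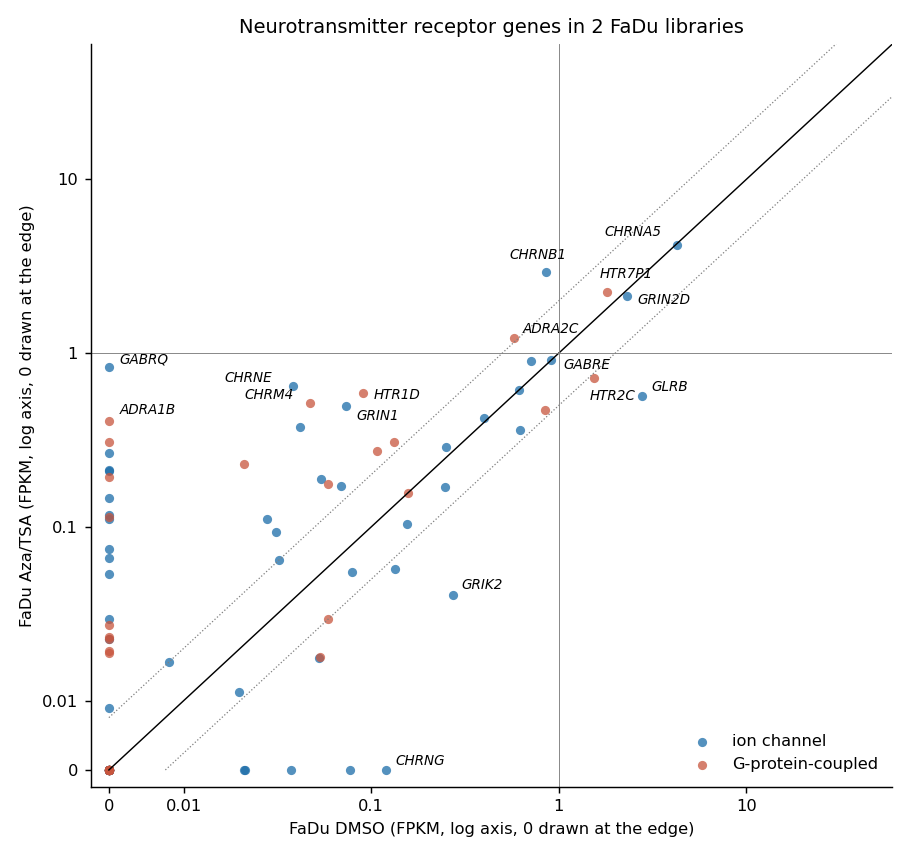
FPKM in the treated FaDu library (vertical, log axis) against the DMSO library (horizontal, log axis) for the receptor genes reported here, 1 point a gene coloured by receptor kind, with 0 drawn at the edge of each axis. The solid line marks equal values and the dotted lines a 2-fold difference. CHRNA5 is the highest point, and the genes on the left edge, which were listed at 0 with DMSO, lie below the 1 FPKM line.

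The promoters of 4 genes that the results turn on are shown because Aza acts on the methylation of CG dinucleotides, which are in capitals: CHRNB1, the receptor gene that was higher, GLRB, the receptor gene that was lower, and GABRQ and CHRM4, which were at or near 0 with DMSO and reached 0.829 and 0.518 FPKM. Each run is the 250 bases before a listed start of the gene on GRCh38.p14, 5′ to 3′ on the gene's strand, from RefSeq. They lie at chr17:7444811-7445060 (plus strand), chr4:157075900-157076149 (plus strand), chrX:152637645-152637894 (plus strand) and chr11:46391777-46392026 (minus strand).
CHRNB1: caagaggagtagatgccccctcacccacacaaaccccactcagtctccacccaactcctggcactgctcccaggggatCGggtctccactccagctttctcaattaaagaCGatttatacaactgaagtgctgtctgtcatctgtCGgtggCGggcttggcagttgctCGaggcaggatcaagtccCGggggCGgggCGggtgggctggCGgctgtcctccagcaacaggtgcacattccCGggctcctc
GLRB: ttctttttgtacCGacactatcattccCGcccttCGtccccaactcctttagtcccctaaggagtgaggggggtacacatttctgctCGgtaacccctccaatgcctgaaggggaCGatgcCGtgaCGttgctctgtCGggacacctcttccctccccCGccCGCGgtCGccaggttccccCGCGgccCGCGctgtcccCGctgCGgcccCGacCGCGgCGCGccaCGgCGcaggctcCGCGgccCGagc
GABRQ: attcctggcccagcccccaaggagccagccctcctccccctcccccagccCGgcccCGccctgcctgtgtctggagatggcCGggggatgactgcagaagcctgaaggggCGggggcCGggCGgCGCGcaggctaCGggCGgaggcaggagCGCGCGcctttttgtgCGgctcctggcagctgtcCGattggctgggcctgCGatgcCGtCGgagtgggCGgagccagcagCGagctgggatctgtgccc
CHRM4: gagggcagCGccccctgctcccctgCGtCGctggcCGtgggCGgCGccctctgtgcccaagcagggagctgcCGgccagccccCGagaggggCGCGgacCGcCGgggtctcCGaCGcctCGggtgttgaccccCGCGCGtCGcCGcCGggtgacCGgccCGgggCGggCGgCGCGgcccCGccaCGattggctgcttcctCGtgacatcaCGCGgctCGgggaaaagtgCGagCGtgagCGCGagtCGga

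The letters CG, which read the same on both strands, occurred 10 times before CHRNB1, 28 times before GLRB, 20 times before GABRQ and 38 times before CHRM4. RefSeq lists a second start for GLRB, whose window held 29 CG and is not printed. Bases shortly after the listed start were found in GENCODE transcripts of CHRNB1 and GLRB but not in those of GABRQ and CHRM4. The starts of GABRQ and CHRM4 are thus less certain. Over 35116 listed human promoters of the same length the median was 11, and 93.9% held at least 1. The genes were picked by their values, and the part of CG number in their differences was not tested. DNA methylation was not measured in these libraries. A promoter was listed for 75 of the 104 receptor genes (72.1%), which is too few for a comparison of promoters across them.

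Adrenergic receptors, the G-protein-coupled receptors for adrenaline and noradrenaline, are divided into alpha and beta classes. ADRB1, the beta-1 receptor known for its action on the heart, was 0.157 FPKM in both libraries, and ADRB3, a receptor of fat cells, was listed at 0 in both. All 4 alpha-adrenergic genes above 0 had the higher value in the treated library, where 59.4% of all genes above 0 in either library did. ADRA2C, an alpha-2 receptor that lowers cyclic AMP, was 0.577 FPKM with DMSO and 1.22 FPKM after treatment, a 2.12-fold ratio that stayed under the 2-fold line with the pseudocount (log2 change 0.49). The alpha-1 receptor genes ADRA1B and ADRA1D, whose products raise calcium, were listed at 0 and then at 0.407 and 0.193 FPKM. ADRA2B was listed at 0 and then at 0.0194 FPKM, and ADRA1A and ADRA2A at 0 in both libraries. ADRBK1, the kinase that phosphorylates activated beta receptors and starts their desensitisation, was 26.4 FPKM with DMSO and 63.8 FPKM after treatment (log2 change 1.24). The arrestin ARRB2, which binds phosphorylated receptors, was 14.1 and 26.5 FPKM (log2 change 0.86). In the list of 12 desensitisation genes, 5 were measured, of which ADRBK1 was higher and none lower. Over all measured genes, 16.1% were higher and 5.21% lower. GRK6 was 9.82 and 14.8 FPKM, and RGS2, which speeds the shut-off of G-protein signals, was 6.24 and 9.98 FPKM.

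Nicotinic receptor subunits, which form acetylcholine-gated cation channels, were the family most widely present: 14 of 16 were above 0 in at least 1 library. CHRNA5, an accessory subunit of neuronal-type receptors, was the highest of them and nearly equal in the libraries, at 4.25 FPKM with DMSO and 4.21 FPKM after treatment. Its neighbours on chromosome 15, with no other coding gene between them, were much lower. CHRNA3 was 0.155 and 0.103 FPKM and CHRNB4 was 0.398 and 0.425 FPKM, so the run of 3 genes kept its order of levels in both libraries. The genes CHRNA7 (0.247 and 0.171 FPKM), which keratinocytes are known to use and which shares exons with a partial copy, and CHRNA10 (0.616 FPKM in both) were not higher after treatment either. CHRNA9, the usual partner of CHRNA10, was listed at 0 and then at 0.212 FPKM. The neuronal subunits CHRNA6 (0.0277 and 0.111 FPKM), CHRNB2 (0.0324 and 0.0648 FPKM) and CHRNA4 (0 and 0.0225 FPKM) had low values that were higher in the treated library, and CHRNA2 and CHRNB3 were listed at 0 in both.

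The muscle-type nicotinic subunits, a textbook grouping taken up here after their values were seen, differed in both directions. CHRNB1, the beta subunit of the receptor of the neuromuscular junction, was 0.853 FPKM with DMSO and 2.93 FPKM after treatment, a 3.44-fold ratio and a log2 change of 1.09 on the FPKM + 1 scale. CHRNE, the adult epsilon subunit, was 0.0382 and 0.647 FPKM, the widest ratio of any receptor gene above 0 in both libraries at 16.9, and CHRNA1, which binds the transmitter, was listed at 0 and then at 0.268 FPKM. CHRND (0.0775 FPKM) and the fetal subunit CHRNG (0.120 FPKM), which lie next to each other on chromosome 2, were above 0 with DMSO only. Thus the alpha, beta and epsilon genes had the higher value after treatment, and the delta and gamma genes were at 0 there. At the worth of a fragment given below, CHRNE rested on about 1.37 fragments with DMSO and 23.2 after treatment. CHRNA1 rested on about 7.69 after treatment, and CHRND and CHRNG on about 3.28 and 3.94 with DMSO. The call of CHRNB1 did not hold after subtracting the trend with transcript GC content (0.70) or with transcript length (0.94). Of genes that cluster this receptor at the synapse, DOK7 was higher, at 0.785 and 2.94 FPKM (log2 change 1.14), and the scaffold RAPSN (0.122 and 0.877 FPKM) and the kinase MUSK (0.0263 and 0.526 FPKM) stayed under 1 FPKM. Markers of skeletal muscle were near 0 with DMSO. Of 6 genes, CKM, a creatine kinase, was at 0 with DMSO and 1.35 FPKM after treatment. DES was at 0 and 0.408 FPKM and ACTA1 at 0.159 and 0.248 FPKM. TTN was at 0.233 and 0.227 FPKM, and the muscle transcription factor genes MYOD1 and MYOG at 0.0372 FPKM and then 0, and at 0 in both. The summed level of the list was 0.430 FPKM with DMSO and 2.24 FPKM after treatment, of which CKM made 1.35 FPKM. The part of these markers in the difference of the subunits was not tested.

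Muscarinic receptors, the G-protein-coupled receptors for acetylcholine, all stayed under 1 FPKM. CHRM3, which drives gland secretion and smooth muscle contraction, was the highest with DMSO, at 0.843 FPKM, and lower after treatment, at 0.468 FPKM. CHRM4 was 0.0471 and 0.518 FPKM and CHRM5 0.0210 and 0.231 FPKM, and in each pair the treated value was 11 times the DMSO value. CHRM1 was listed at 0 and then at 0.0227 FPKM, and CHRM2, the receptor that slows the heart, at 0 in both. The order of the family therefore differed: CHRM3 was far above the rest with DMSO, and CHRM4 and CHRM3 were at like levels after treatment. Genes that make and load acetylcholine, CHAT, SLC18A3 and SLC5A7, were listed at 0 in both libraries, and ACHE, the enzyme that breaks it down, was 0.0433 and 0.417 FPKM. LYNX1, a membrane-anchored modulator of nicotinic receptors, was listed at 0 and then at 1.14 FPKM and so counted as higher.

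GABA-A receptor subunits, which form the chloride channels behind most fast inhibition in the brain, had 12 of 19 genes above 0 and none measured. The highest were 3 subunits encoded on the X chromosome. GABRE was 0.909 FPKM in both libraries. GABRA3 was 0.715 FPKM with DMSO and 0.900 FPKM after treatment. GABRQ, the next coding gene to GABRA3, was listed at 0 with DMSO and at 0.829 FPKM after treatment, the highest value of the 23 receptor genes that were above 0 only there. After treatment the 3 X-linked genes were therefore at like levels, while with DMSO GABRQ was not detected. The rho subunit genes, best known from the retina and neighbours on chromosome 6, differed in direction: GABRR1 was 0.624 and 0.362 FPKM and GABRR2 0.0417 and 0.376 FPKM.

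The remaining GABA-A genes were at or near 0. GABRD, a subunit of receptors outside the synapse, was 0.0692 and 0.173 FPKM, and GABRP, a subunit known from epithelia, was 0.134 and 0.0575 FPKM. GABRA5 and GABRG3, neighbours on chromosome 15, were listed at 0 in both libraries. On chromosome 5, GABRA6 was listed at 0 in both, beside GABRB2, a beta subunit, at 0.00839 and 0.0168 FPKM. On chromosome 4, GABRG1, GABRA2 and GABRB1 were listed at 0 and then at 0.00907, 0.0537 and 0.0294 FPKM, and GABRA4 at 0 in both, as was GABRR3. Partner genes were present at higher levels. GAD1, which makes GABA from glutamate, was 6.47 and 3.29 FPKM (log2 change -0.80), the GABA transporters SLC6A11 and SLC6A13 were 2.83 and 3.83 FPKM and 1.75 and 2.37 FPKM, and ALDH5A1, which clears a breakdown product of GABA, was 8.35 and 3.56 FPKM (log2 change -1.04). GABBR1, a subunit of the G-protein-coupled GABA-B receptor, which the symbol pattern leaves out, was 3.23 and 4.37 FPKM.

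In the family of glycine receptors, the chloride channels of the spinal cord and brainstem, all 4 genes above 0 were lower in the treated library. Of all genes above 0 in either library, 59.4% had the higher value there. GLRB, the beta subunit that anchors the receptor to gephyrin, was 2.79 FPKM with DMSO and 0.563 FPKM after treatment, a 4.96-fold ratio and a log2 change of -1.28. GLRA3 was 0.0527 and 0.0176 FPKM, and GLRA1 (0.0374 FPKM) and GLRA2 (0.0212 FPKM) were above 0 with DMSO only. At the worth of a fragment given below, GLRA1 and GLRA2 rested on about 0.976 and 0.986 fragments with DMSO. GLRA3 rested on about 6.70 fragments with DMSO and 2.23 after treatment. The beta subunit alone was at an appreciable level, since the alpha subunits, which bind glycine, were below 0.1 FPKM throughout. The call of GLRB did not hold after subtracting the trend with transcript GC content (-0.83). GRIA2, the coding gene next to GLRB on chromosome 4, was listed at 0 and then at 0.0751 FPKM, in the other direction. The anchor gene GPHN, which encodes gephyrin, was 10.2 and 5.40 FPKM, with a log2 change of -0.81. The glycine transporter gene SLC6A9 was 6.05 and 3.27 FPKM (log2 change -0.72). Of GLRB, GPHN and SLC6A9, GLRB alone passed the 2-fold line.

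**Figure D2:**
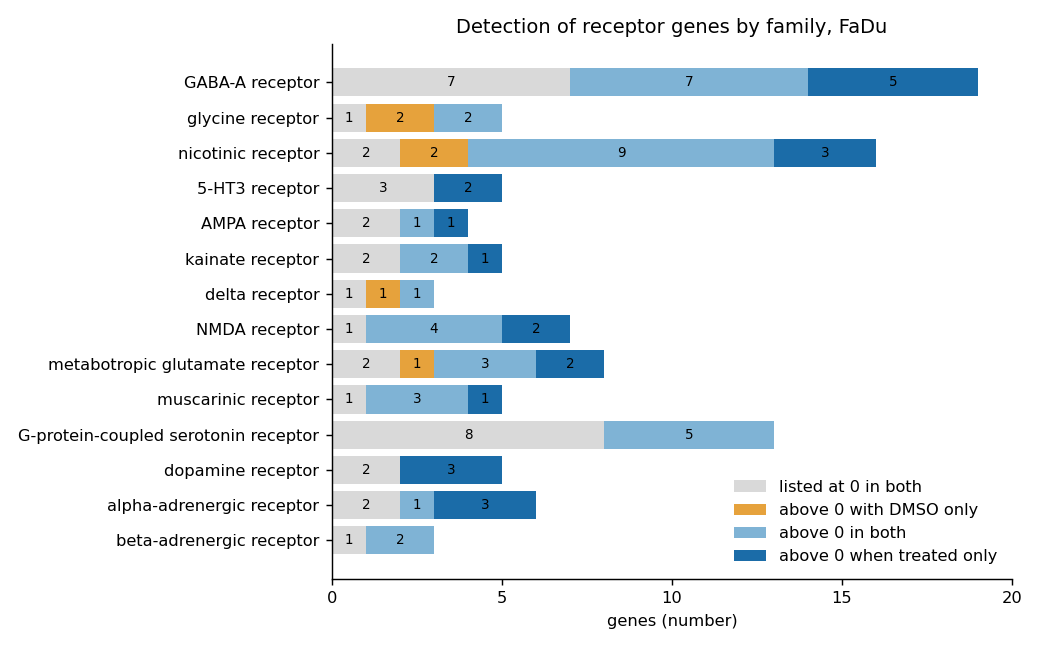
Number of genes in each of 14 receptor families by detection in the FaDu libraries: listed at 0 in both, above 0 with DMSO only, above 0 in both, and above 0 when treated only. Nicotinic (14) and GABA-A (12) subunits are the families with the most genes above 0 in either library, and the dopamine and 5-HT3 receptor genes that were detected were above 0 only after treatment.

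Ionotropic glutamate receptors, the cation channels of fast excitation, had 13 of 19 symbols above 0 and GRIN2D alone measured. GRIN2D, an NMDA receptor subunit of the developing brain, was 2.30 FPKM with DMSO and 2.12 FPKM after treatment (log2 change -0.08). Its transcript is GC-rich, and it passed the 2-fold line as lower once the GC trend was subtracted (-1.15). That trend was fitted over genes reaching 5 FPKM, above the level of GRIN2D. GRIN1, the subunit that every NMDA receptor needs, was lower in level and went the other way, at 0.0732 and 0.498 FPKM. GRIN2C and GRIN3B were listed at 0 and then at 0.147 and 0.117 FPKM, GRIN2B was 0.0311 and 0.0934 FPKM and GRIN3A 0.0787 and 0.0551 FPKM, while GRIN2A was listed at 0 in both. So the treated library held 6 of the 7 NMDA subunit genes above 0, against 4 with DMSO.

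The other glutamate channels were lower still. Among kainate receptor genes, GRIK5 was 0.251 and 0.287 FPKM, GRIK4 was listed at 0 and then at 0.112 FPKM, and GRIK2 was 0.271 and 0.0407 FPKM, the lowest treated-to-DMSO ratio of any receptor gene above 0 in both libraries at 0.150. GRIK1 and GRIK3 were listed at 0 in both. Of the AMPA receptor genes, which carry most fast excitation, GRIA4 was 0.0198 and 0.0112 FPKM, GRIA2 is given above, and GRIA1 and GRIA3 were listed at 0 in both. The delta receptor gene GRID1 was 0.0211 FPKM with DMSO only, and the binding protein gene GRID2IP was 0.0538 and 0.188 FPKM. Some genes of receptor assembly and anchoring were at higher levels, and others, such as the AMPA receptor partners CACNG2 and CACNG3, were listed at 0 in both libraries. HOMER3, a scaffold of metabotropic glutamate receptors, was 9.39 and 27.2 FPKM (log2 change 1.44), and the scaffold SHANK2 was 11.6 and 3.71 FPKM (log2 change -1.42). PICK1, which binds AMPA receptors, was 5.88 and 13.6 FPKM (log2 change 1.08), and GABARAPL1, a relative of the protein that traffics GABA-A receptors and part of autophagy, was 40.8 and 93.6 FPKM (log2 change 1.18). In the list of 46 assembly and anchoring genes, 45 were in the table and 24 measured, of which 6 were higher and SHANK2 lower, where 16.1% of all measured genes were higher and 5.21% lower. The median log2 change of the 24 was 0.30, against 0.13 over all measured genes.

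Metabotropic glutamate receptors stayed under 0.4 FPKM. GRM2, a receptor that limits transmitter release, was the highest, at 0.132 and 0.309 FPKM. GRM4 and GRM5 were listed at 0 and then at 0.113 and 0.0233 FPKM. GRM3 (0.0587 and 0.0294 FPKM) and GRM8 (0.0532 and 0.0177 FPKM) were lower after treatment, and GRM6 and GRM7 were listed at 0 in both. The family thus differed in both directions. Of 14 genes that make transmitters, 7 were measured, and 1 was higher and none lower. Over all measured genes, 16.1% were higher and 5.21% lower. GLUL, which makes glutamine from glutamate, was 27.2 and 24.7 FPKM, the serine racemase gene SRR, whose product makes an NMDA receptor co-agonist, was 4.04 and 1.58 FPKM (log2 change -0.97), and GLS2 was 2.49 and 1.21 FPKM (log2 change -0.66).

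Serotonin receptor genes were the largest silent group. Of the 13 that encode or derive from G-protein-coupled receptors, 8 were listed at 0 in both libraries: HTR1A, HTR1B, HTR1E, HTR1F, HTR2A, HTR4, HTR5A and HTR6. HTR2C, a receptor of the brain that raises calcium, was 1.53 FPKM with DMSO and 0.720 FPKM after treatment (log2 change -0.56). The pseudogene HTR7P1 was 1.81 and 2.23 FPKM, above HTR7 itself (0.108 and 0.274 FPKM), whose sequence it resembles, so reads between the pair are uncertain. HTR1D, the target of migraine drugs, was 0.0905 and 0.588 FPKM, and HTR2B was 0.0586 and 0.176 FPKM. Of the 5-HT3 channel subunits, HTR3A and HTR3E were listed at 0 and then at 0.0664 and 0.209 FPKM, and HTR3B, HTR3C and HTR3D at 0 in both. TPH2 and DDC, which make serotonin, were listed at 0 in both libraries, and TPH1 was 0.259 and 0.0739 FPKM.

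No dopamine receptor gene was above 0 with DMSO. After treatment 3 of 5 were, against 29.9% of all genes listed at 0 with DMSO. DRD4 was listed at 0 and then at 0.308 FPKM, DRD1 and DRD5 at 0 and then at 0.0188 and 0.0274 FPKM, and DRD2 and DRD3 at 0 in both. TH, the rate-limiting enzyme of dopamine and noradrenaline synthesis, was 0.0369 FPKM with DMSO and 1.26 FPKM after treatment (log2 change 1.12), and MAOA, which degrades these amines and serotonin, was 0.200 and 2.14 FPKM (log2 change 1.39). The vesicular amine transporter SLC18A2 was 3.00 and 1.57 FPKM (log2 change -0.64). At the worth of a fragment given below, DRD4 rested on about 6.14 fragments after treatment, DRD1 on 1.10 and DRD5 on 0.925. Of TH, MAOA and SLC18A2, TH and MAOA passed the 2-fold line. Of 23 transporter genes 5 were measured, and none was higher or lower, with SLC1A3, a glutamate transporter, the highest at 7.91 and 5.94 FPKM. Of 7 breakdown genes 3 were measured, with MAOA higher and ALDH5A1 lower. Over all measured genes, 16.1% were higher and 5.21% lower.

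The low values stepped in whole numbers of fragments. Of the 32 receptor genes above 0 in both libraries and under 1 FPKM in both, 24 had a ratio of whole numbers up to 20, within 0.01%, once the 0.999855 worth of a fragment in the treated library relative to the DMSO library was allowed for, while none of the 8 measured genes did. CHRM4 and CHRM5 stood at 1 to 11, GABRR2 at 1 to 9, CHRNA6 at 1 to 4, GRIN2B and HTR2B at 1 to 3 and HTR1D at 2 to 13, while GLRA3 and GRM8 stood at 3 to 1 and GRIK2 at 20 to 3. ADRB1, CHRNA10 and GABRE had equal values. Such pairs give the fewest fragments that fit and may be multiples of them, so a wide ratio may rest on a single DMSO fragment. From 58 other genes with a single GENCODE transcript, 1 fragment was worth about 0.0690 FPKM on a transcript of 1000 bases. The quartiles over those 58 genes were 0.0642 and 0.141 FPKM, so all fragment numbers given here are rough. They use 0.0690 FPKM and the longest coding transcript. Of the 23 genes above 0 only after treatment, 7 rested on fewer than 2 fragments, 12 on 2 to 10 and 4 on 10 or more. ADRA2B, CHRM1, DRD1, DRD5, GABRB1 and GABRG1 came to about 1 fragment each, and GABRQ to about 74.1.

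**Figure D3:**
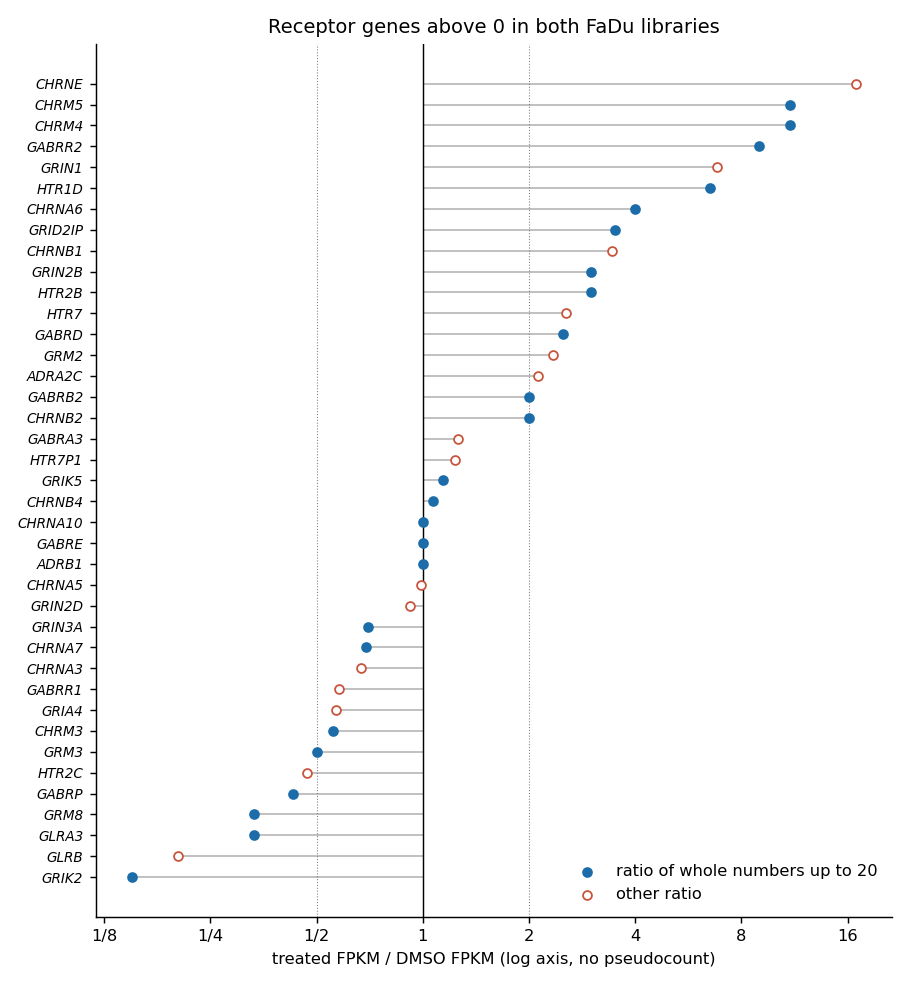
Ratio of the treated to the DMSO FPKM, on a log axis with no pseudocount, for the receptor genes reported here that were above 0 in both FaDu libraries, with filled points for ratios of whole numbers up to 20 and open points for the others. The dotted lines mark a 2-fold difference either way, which 17 genes met or passed upward and 7 downward, from CHRNE at 16.9 to GRIK2 at 0.150.

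Without a pseudocount, 17 of the 40 receptor genes above 0 in both libraries had a treated value at least 2 times the DMSO value, against 24.8% of all such genes. In 7 the treated value was at most the DMSO value divided by 2, against 11.1% of all such genes, and 16 lay between. The receptor genes hold more low values than the table as a whole, and at low values a few fragments give a wide ratio. Of the 81 receptor genes under 0.1 FPKM with DMSO, 22 (27.2%) reached 0.1 FPKM after treatment, against 23.7% of all genes under 0.1 FPKM with DMSO. At 0.5 FPKM it was 4 (4.94%) against 8.58%, and those 4 were CHRM4, CHRNE, GABRQ and HTR1D. The receptor genes thus lay near all silent genes at 0.1 FPKM and below them at 0.5 FPKM, a difference that could not be tested with 1 library per group.

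**Figure D4:**
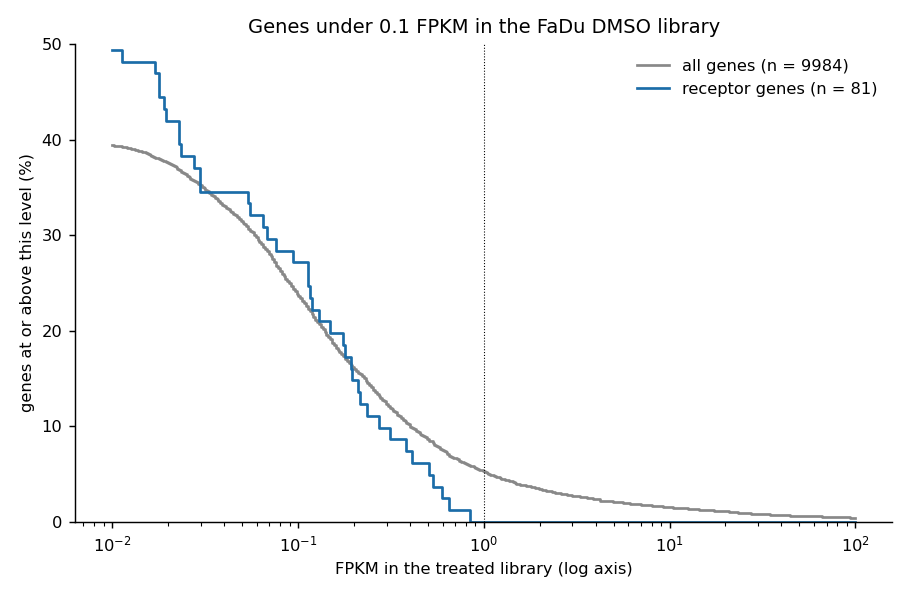
Share of genes (vertical, %) at or above each FPKM in the treated FaDu library (horizontal, log axis), for the genes under 0.1 FPKM in the DMSO library: 81 receptor genes and 9984 genes in all. The line of the receptor genes ends at 0.829 FPKM, left of the dotted mark at 1 FPKM, which 5.25% of all such genes passed.

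Change across all genes followed the GC content of the transcript, as a Spearman rho of 0.67 shows over the 7150 genes whose DMSO and treated values both reached 5 FPKM, and genes are not independent replicates. Among the receptor genes, the 23 that were above 0 only after treatment had a median transcript GC content of 53.1%, and the 35 listed at 0 in both had 49.0%. Over all genes the medians for these states were 52.7% and 47.9%. The 6 receptor genes above 0 with DMSO only had a median of 52.2%, against 46.7% for all genes in that state. The part of GC content in the differences was not tested beyond the corrected values given above.

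Markers of the line and of other cell types were read in the same libraries. All 8 squamous epithelium markers were above 3 FPKM in both, led by KRT17 at 1164 and 1341 FPKM. Of these, KRT5 (687 and 226 FPKM), TP63 (73.7 and 23.2 FPKM) and DSG3 (22.1 and 3.16 FPKM) were lower after treatment and KRT14 (49.8 and 147.1 FPKM) was higher. Their part in the differences of the receptor genes was not tested. Of 10 neuron markers 5 were measured, TUBB3 (6.71 and 20.1 FPKM), SYP (0.107 and 1.58 FPKM) and INA (0.492 and 3.72 FPKM) higher and SYT1 (5.76 and 2.11 FPKM) lower, with a summed level of 14.9 FPKM with DMSO and 29.02 FPKM after treatment. Over all measured genes, 16.1% were higher and 5.21% lower. MAP2, the other measured neuron marker, was 1.01 and 0.866 FPKM, and NEFL was 0.686 and 0.475 FPKM. RBFOX3 was 0.0722 and 0.0241 FPKM, and SNAP25 was 0.0966 FPKM and then listed at 0. STMN2 and ELAVL4 were listed at 0 and then at 0.0590 and 0.107 FPKM. Of 4 neuroendocrine markers, SCG2 was at 0 and 1.56 FPKM. Of 6 glia markers MBP alone was measured (7.18 and 4.65 FPKM), and GFAP was at 0 and 0.256 FPKM. Of 4 leukocyte markers CD14 was higher (1.62 and 4.59 FPKM).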

How the data were processed

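Polyadenylated RNA of FaDu cells was sequenced from 1 stranded library per group, of 4 libraries in the series. The authors deposited 1 table of FPKM per gene symbol and library, per the file headers. TopHat 1.3.2, Cufflinks 2.0.2 and hg19 are named in the submitters' processing notes, while annotation, filters and any scaling across columns were not stated there or in the labels. Read totals are not given, so depth is known only through the worth of a fragment. The 45 repeated rows were summed to 25548 symbols, none among the receptor genes. The change was log2((treated FPKM + 1)/(DMSO FPKM + 1)), with the limits given in the text. The receptor genes and the lists were chosen with earlier results of these data known. Every measured receptor gene was named, with the 8 highest treated and 4 highest DMSO values among the others and up to 4 measured members of each companion list with the widest change. Some genes that these rules name are not reported here and are left out of the plots of single genes, though the counts include them. Further genes are named to account for the others, and the companions and markers named beyond the rule were chosen after their values were seen. Transcript length and GC content came from GENCODE release 29 (104 of 104 receptor genes matched) and promoters from RefSeq, both on GRCh38, another build than the files, so no coordinates of the files were used. Trends were fitted by lowess (fraction 0.3) over genes reaching 5 FPKM with DMSO and after treatment. Calls and corrections were tested on simulated data made from genes at 5 FPKM or more with DMSO. That check does not cover the lower levels of nearly all receptor genes. Python 3.11.15, pandas 2.3.3, NumPy 2.4.6, statsmodels 0.14.6 and matplotlib 3.10.9 were used.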

Additional observations from a re-analysis of the deposited data

How the results depend on the processing

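No paired analysis was possible because each group held 1 library and no result comes from a test. The count of receptor genes higher was 1 and of those lower 1 as reported. Both were 0 with a pseudocount of 5 FPKM, with a minimum of 5 FPKM (which leaves 1 gene) and at a 4-fold threshold. Over all measured genes, 6.59% were higher and 1.87% lower with that pseudocount. With the GC trend subtracted, 0 were higher and 2 lower (GRIN2D among them), beside 7.44% higher and 4.25% lower over all genes. With the length trend subtracted 0 were higher and 1 lower, beside 13.5% and 6.14% over all genes. Scaling to TPM gave 3 higher and 1 lower, beside 17.9% and 7.71% over all genes. It also gave 3 switched on, CHRM4, CHRNE and GABRQ, and the share of all genes switched on in TPM is not given. TPM here are about 2 times the FPKM and lift more genes over 1. Counting from 0.5 FPKM in the treated library, 4 were switched on. The median change of the measured receptor genes was -0.80 with a minimum of 5 FPKM and -0.41 with the GC trend subtracted. Over all receptor genes it was -0.12 with the GC trend subtracted. That trend, fitted over genes reaching 5 FPKM, also shifted genes listed at 0 in both libraries, such as HTR6 (-1.03) and HTR1F (0.70). The -0.12 thus includes shifts of undetected genes and is not read as a change of expression. Otherwise these counts stayed within 1.5 times and these medians within 0.1 under the alternatives tried. Of 144 values of 18 named genes under alternatives, 16 crossed the fold threshold and no called one changed sign. Of the 16, 5 were with a pseudocount of 0.1 FPKM, in genes under 1 FPKM in both libraries, which carry no call. Only CHRNB1 and GLRB carry a higher or lower call. Genes without one did change sign with the GC trend subtracted. These were ADRA2C (0.49 to -0.59), GRIN1 (0.48 to -0.48), CHRM4 (0.54 to -0.23), CHRNE (0.67 to -0.03), HTR7P1 (0.20 to -0.06) and CHRNA5 (-0.01 to 0.25). All of them were under 5 FPKM, below the genes that set the trend, so their sign changes are not read as changes of direction. The same limit holds for the GC-corrected values of GRIN2D, CHRNB1 and GLRB, and for most genes behind the median of -0.41. Leaving out a replicate was not possible with 1 library per group. Depth limits what the lowest values show, since several rest on about 1 fragment.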
